A study of Mus musculus with 6 samples.

Results

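The mesenchymal identity transcription factors examined here are Twist1, Twist2, Prrx1, Prrx2, Snai1, Snai2, Zeb1, Zeb2, Tcf21 and Nr2f2, 10 of the 24421 genes in the deposited gene table, taken by symbol. All 10 are protein-coding genes in RefSeq, at positions that overlap those of the count table (mm10, that is GRCm38, which holds for all coordinates given). Libraries of ribosomal RNA-depleted total RNA were compared between Ube3d-KO and WT cells of the mouse embryonic fibroblast line 3T3-L1, with 3 libraries per genotype that the titles call biological replicates. 3T3-L1 cells are used as preadipocytes, since they can be turned into fat cells, and here all of them were undifferentiated and growing. UBE3D, a ubiquitin ligase, is known to bind CPSF73, the enzyme that cleaves mRNA precursors. The labels state neither the method of knockout nor the number of clones, nor how separate the cultures were, and p-values therefore measure only the spread between these libraries.

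These factors hold embryonic and connective-tissue cells in a mesenchymal state. TWIST1, TWIST2 and TCF21 are basic helix-loop-helix (bHLH) proteins that bind DNA as dimers with E-proteins, at E-boxes with the letters CANNTG, and ID proteins hold E-proteins away from DNA. SNAI1, SNAI2, ZEB1 and ZEB2 are zinc-finger repressors that bind the E-box CACCTG, or CAGGTG on the other strand, and are best known for silencing epithelial genes such as Cdh1. PRRX1 and PRRX2 are paired-related homeodomain proteins of limb and facial mesenchyme, and NR2F2, also called COUP-TFII, is an orphan nuclear receptor. In preadipocytes ZEB1 is known to favour fat cell formation, and PRRX1 and NR2F2 to restrain it.

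The upstream sequences of 5 genes are shown as context for the results below. Snai1 is the listed factor whose promoter window holds the E-box that its own family binds, Epcam and Lsr are epithelial genes with that E-box, and Twist1 and Twist2 are the pair that moved furthest apart among 4 paralogue pairs compared. Each line gives the 250 bases before the RefSeq gene start (GRCm38.p6), 5′ to 3′ on the gene's strand. Capitals mark CACCTG or CAGGTG in the first 3 sequences and CG dinucleotides in the Twist pair.
Snai1 (chr2:167537945-167538194, plus strand): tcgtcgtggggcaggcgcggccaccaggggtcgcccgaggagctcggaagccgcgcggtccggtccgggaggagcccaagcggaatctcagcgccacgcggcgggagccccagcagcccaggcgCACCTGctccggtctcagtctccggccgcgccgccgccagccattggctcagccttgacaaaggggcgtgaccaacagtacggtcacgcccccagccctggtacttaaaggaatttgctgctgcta
Epcam (chr17:87635729-87635978, plus strand): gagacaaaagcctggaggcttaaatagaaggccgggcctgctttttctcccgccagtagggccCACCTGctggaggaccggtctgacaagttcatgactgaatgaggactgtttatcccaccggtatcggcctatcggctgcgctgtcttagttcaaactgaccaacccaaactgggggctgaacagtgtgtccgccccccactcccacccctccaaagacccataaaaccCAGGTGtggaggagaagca
Lsr (chr7:30973470-30973719, minus strand): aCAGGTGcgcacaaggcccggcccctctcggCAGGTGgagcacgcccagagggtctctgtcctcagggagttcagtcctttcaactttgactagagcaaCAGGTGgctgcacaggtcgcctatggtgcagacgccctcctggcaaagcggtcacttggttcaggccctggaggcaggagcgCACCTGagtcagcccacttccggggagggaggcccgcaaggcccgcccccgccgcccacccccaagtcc
Twist1 (chr12:33957421-33957670, plus strand): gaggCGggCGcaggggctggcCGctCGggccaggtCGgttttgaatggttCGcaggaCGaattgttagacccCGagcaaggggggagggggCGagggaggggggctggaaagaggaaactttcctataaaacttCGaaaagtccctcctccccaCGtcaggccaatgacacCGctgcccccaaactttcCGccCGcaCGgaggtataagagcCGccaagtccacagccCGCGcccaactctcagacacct
Twist2 (chr1:91801211-91801460, plus strand): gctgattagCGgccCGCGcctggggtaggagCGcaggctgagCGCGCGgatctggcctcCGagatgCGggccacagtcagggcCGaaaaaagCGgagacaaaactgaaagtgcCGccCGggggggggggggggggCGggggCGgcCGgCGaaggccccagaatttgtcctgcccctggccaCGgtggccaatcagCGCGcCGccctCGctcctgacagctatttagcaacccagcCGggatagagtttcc

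Promoter windows of 300 bases, from 250 before to 50 after the start, (11 in all) were listed for 8 of the 10 factors, and Snai2 and Zeb1 had no entry. CACCTG or CAGGTG, searched on both strands, was found in the window of Snai1 and in none of the other 10, of which 4 belong to Zeb2, against 20.2% of all 32851 windows. CANNTG, which includes these letters, was found in the windows of Snai1 and Nr2f2 alone, against 72.3% of all windows. The Twist1 window held 27 CG dinucleotides and the Twist2 window 25, where the median window held 7. Prrx2 had 28 and Prrx1 6. These counts describe letters in a window and do not show binding.

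Ube3d, listed under its older symbol Ube2cbp (chromosome 9, 86307234 to 86464916, minus strand), was at 1.89 ± 0.31 CPM in Ube3d-KO cells and 6.80 ± 0.80 CPM in WT cells (SD, n = 3 each). CPM are read counts divided by the TMM-normalised library size and given on the usual CPM scale. The libraries held 25267434 to 28042970 gene counts in KO and 23767181 to 29389480 in WT. The 8 fibroblast markers were detected, Lum only under 0.34 CPM, and summed to 6966 to 7118 CPM in KO libraries and 9065 to 9375 CPM in WT libraries. Of the 7 tested, Col1a1, Col1a2, Pdgfra, Pdgfrb and Thy1 fell, Vim was not called, and Dcn, encoding decorin, rose 5.57-fold (186.2 ± 1.5 CPM in KO and 33.5 ± 1.9 CPM in WT, edgeR adjusted p = 9.9e-59). Over all tested genes 31.2% fell and 30.3% rose at adjusted p under 0.05. Endothelial markers summed to 1.45 to 2.42 CPM in KO libraries and 0.600 to 1.08 CPM in WT libraries, with Tie1 at 0. Leukocyte markers summed to 6.68 to 7.30 CPM in KO and 5.35 to 6.67 CPM in WT, with Adgre1 at 0, and glial markers to 7.56 to 7.87 CPM in KO and 3.92 to 4.54 CPM in WT. Skeletal muscle markers summed to 0.293 to 0.676 CPM in KO and 1.20 to 2.09 CPM in WT, with Myod1, Myog and Myf5 at 0, and adipocyte markers to 0.865 to 1.17 CPM in KO and 3.43 to 3.92 CPM in WT. The part of these differences in the results below was not tested, and in bulk RNA fewer cells of a type and less RNA per cell cannot be told apart.

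Of the 10 factors, 9 had enough counts to test, and of these 5 rose and 3 fell in Ube3d-KO cells (edgeR quasi-likelihood test, Benjamini-Hochberg adjusted p under 0.05 over all tested genes). Twist1, Prrx1, Prrx2, Zeb1 and Nr2f2 were higher, Twist2, Snai2 and Zeb2 were lower, Snai1 was not called, and Tcf21 had no count. Over all 12947 tested genes the test called 61.4%, with 30.3% higher and 31.2% lower, so a call is common in this comparison. The changes were small. The factor that changed most, Prrx2, rose 1.34-fold, and 25.9% of all tested genes changed by more. The median absolute log2 fold change was 0.217 for the 9 factors and 0.220 for all tested genes. The genotypes did not overlap in CPM for the 8 called factors, as for 64.3% of tested genes. Of these 8, 5 were above WT in every KO library, as were 31.8% of tested genes, and 3 were below, as were 32.5%.

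**Figure D1:**
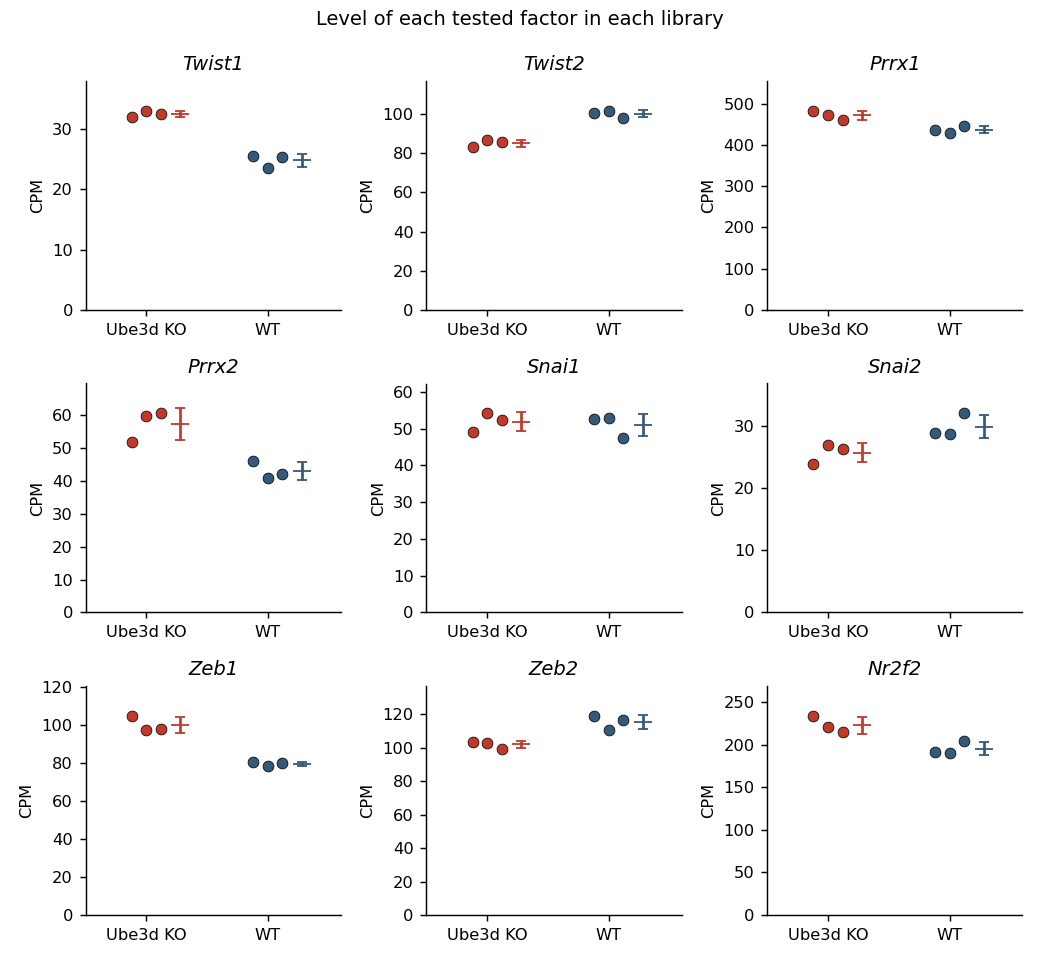
CPM of the 9 tested factors in each library (points), with the mean and SD of 3 libraries beside them, Ube3d-KO in red and WT in blue; axes start at 0 and differ between panels. The points of the genotypes are separate in every panel but that of Snai1, and the largest fold change is that of Prrx2, with 57.4 CPM in KO and 43.0 CPM in WT.

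Twist1 and Twist2, close paralogues that both repress differentiation of mesenchymal cells, moved in opposite directions. Twist1 (chromosome 12, 33957671 to 33959831, plus strand, 2 exons) was at 31.9, 32.9 and 32.5 CPM in the KO libraries, against 25.5, 23.5 and 25.3 CPM in the WT libraries. Every KO library was above every WT library, and the 3 KO libraries lay closer together. Twist1 rose 1.31-fold (log2 fold change 0.39, SE 0.06, edgeR adjusted p = 1.5e-08). Twist2 (chromosome 1, 91801477 to 91848027, plus strand, 2 exons) was at 83.1, 86.5 and 85.6 CPM in KO, against 100.3, 101.5 and 98.0 CPM in WT. All KO libraries lay below all WT libraries. Twist2 fell by 0.23 on the log2 scale (SE 0.04, edgeR adjusted p = 8.9e-08), that is 1.17-fold lower. Per kb of exon Twist2 remained the more abundant of the pair, at 64.8 ± 1.3 CPM per kb in KO and 76.2 ± 1.4 CPM per kb in WT, where Twist1 had 19.9 ± 0.31 CPM per kb in KO and 15.2 ± 0.66 CPM per kb in WT. Twist1 made up 23.5% ± 0.11 of the pair in KO and 16.6% ± 0.80 in WT.

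Zeb1 and Zeb2, which share their zinc-finger clusters and homeodomain, also moved apart. Zeb1 (chromosome 18, 5591860 to 5775468, plus strand, 8 exons) was at 104.9, 97.4 and 98.2 CPM in KO, against 80.4, 78.2 and 80.0 CPM in WT. The lowest KO library was well above the highest WT library. Zeb1 rose 1.26-fold (log2 fold change 0.33, SE 0.04, edgeR adjusted p = 4.9e-12). Zeb2 (chromosome 2, 44983512 to 45113279, minus strand, 19 exon rows) was at 103.6, 103.1 and 99.4 CPM in KO, against 119.2, 110.9 and 116.8 CPM in WT. Its KO libraries were all below its WT libraries. Zeb2 fell by 0.18 on the log2 scale (SE 0.04, edgeR adjusted p = 1.0e-05), a 1.13-fold decrease. The exons of Zeb2 share 664 bases with Zeb2os on the other strand, and the labels do not say whether strand was used in counting, so reads of both genes may be mixed. Zeb2os had 132 to 153 counts in KO and 110 to 140 in WT, against 2636 to 2811 Zeb2 counts in KO and 2784 to 3293 in WT. Zeb2os itself was not called (log2 fold change 0.20, SE 0.13, edgeR adjusted p = 0.167).

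Prrx1 and Prrx2 both rose, by different amounts. Prrx1 (chromosome 1, 163245119 to 163313650, minus strand, 12 exon rows) had the highest CPM of the 10 factors, with 482.6, 473.8 and 460.5 CPM in KO, against 436.9, 428.3 and 447.1 CPM in WT. The genotypes were separate, though the lowest KO and highest WT libraries lay close together. Prrx1 rose 1.08-fold (log2 fold change 0.11, SE 0.03, edgeR adjusted p = 8.6e-04). Prrx2 (chromosome 2, 30845367 to 30881247, plus strand, 4 exons) was at 51.8, 59.8 and 60.5 CPM in KO, against 46.0, 41.0 and 42.1 CPM in WT. KO replicate 1 lay below the other KO libraries and still above all WT libraries. Prrx2 rose 1.34-fold (log2 fold change 0.42, SE 0.05, edgeR adjusted p = 2.6e-10).

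Snai1 did not pass the test, and Snai2 fell. Snai1 (chromosome 2, 167538227 to 167542811, plus strand, 3 exons), an early and short-lived inducer of the mesenchymal state, was at 49.1, 54.1 and 52.5 CPM in KO, against 52.5, 52.8 and 47.6 CPM in WT. The groups overlapped, and the log2 fold change was 0.03 (SE 0.05, edgeR adjusted p = 0.628). Its sign turned without KO replicate 2 (log2 fold change -0.0067) and without WT replicate 3 (log2 fold change -0.022). Snai2, also known as Slug (chromosome 16, 14705859 to 14709382, plus strand, 3 exons), had 23.9, 26.9 and 26.2 CPM in KO, against 28.9, 28.8 and 32.0 CPM in WT. The KO libraries were all lower than the WT libraries. Snai2 fell by 0.22 on the log2 scale (SE 0.06, edgeR adjusted p = 0.00122), a 1.16-fold decrease, and was the least abundant of the 9 by CPM in KO.

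Nr2f2 (chromosome 7, 70351950 to 70366746, minus strand, 6 exon rows) was at 234.2, 220.7 and 214.7 CPM in KO, against 191.8, 190.5 and 204.6 CPM in WT. Its genotypes did not overlap, and it rose 1.14-fold (log2 fold change 0.19, SE 0.03, edgeR adjusted p = 4.5e-07). Tcf21 (chromosome 10, 22817275 to 22820128, minus strand, 2 exons), a marker of visceral mesenchyme and of some white preadipocytes, had 0 counts in each of the 6 libraries. A count of 0 allows up to 3 counts, or 0.107 to 0.118 CPM in KO and 0.101 to 0.128 CPM in WT, and this limit covers counting error only.

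**Figure D2:**
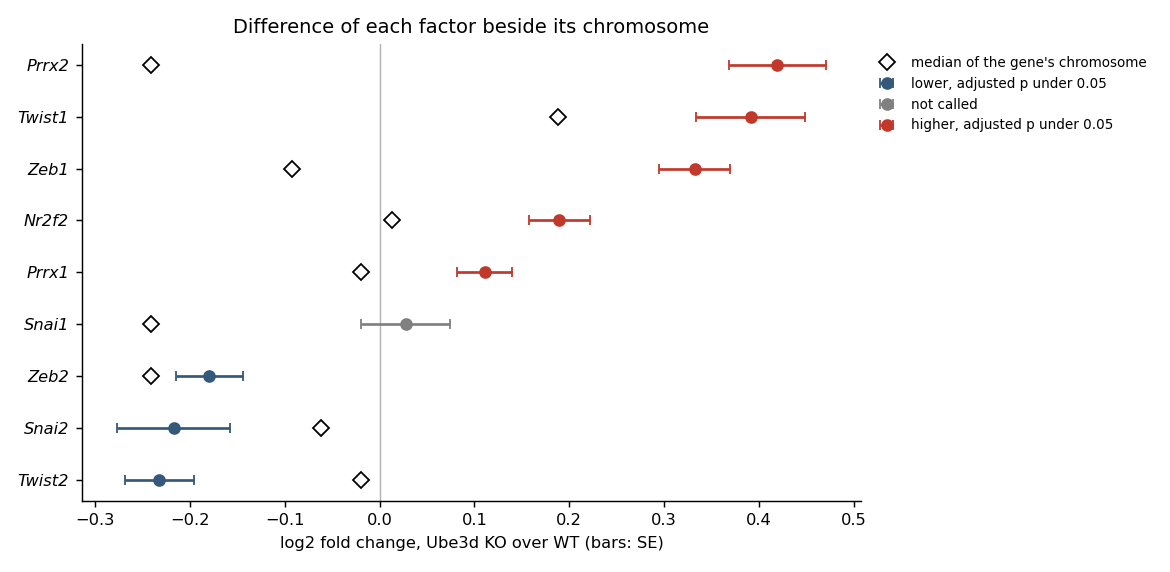
Log2 fold change, Ube3d-KO over WT, of the 9 tested factors (points, bars are the SE) beside the median of the other tested genes on the same chromosome (open diamonds). Prrx2 sits at 0.42 while the chromosome 2 median is at -0.24, and Twist2 sits lowest at -0.23.

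Levels per exon length spanned a wide range in both genotypes. In KO the order was Twist2 (64.8 ± 1.3 CPM per kb), Prrx1 (63.4 ± 1.5), Prrx2 (50.8 ± 4.3), Nr2f2 (45.8 ± 2.1), Snai1 (32.7 ± 1.6), Twist1 (19.9 ± 0.31), Zeb1 (17.3 ± 0.70), Snai2 (12.8 ± 0.78) and Zeb2 (10.9 ± 0.25). In WT it was Twist2 (76.2 ± 1.4 CPM per kb), Prrx1 (58.7 ± 1.3), Nr2f2 (40.2 ± 1.6), Prrx2 (38.1 ± 2.4), Snai1 (32.1 ± 1.9), Twist1 (15.2 ± 0.66), Snai2 (14.9 ± 0.91), Zeb1 (13.7 ± 0.20) and Zeb2 (12.4 ± 0.46). Neighbours whose libraries overlapped were Twist2 with Prrx1 and Prrx2 with Nr2f2 in KO, and Nr2f2 with Prrx2 and Twist1 with Snai2 in WT. The exon length is that of all exons in the count table, not of the transcript in use, so levels of genes with many exon rows, Prrx1 and Zeb2 above all, may be understated.

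**Figure D3:**
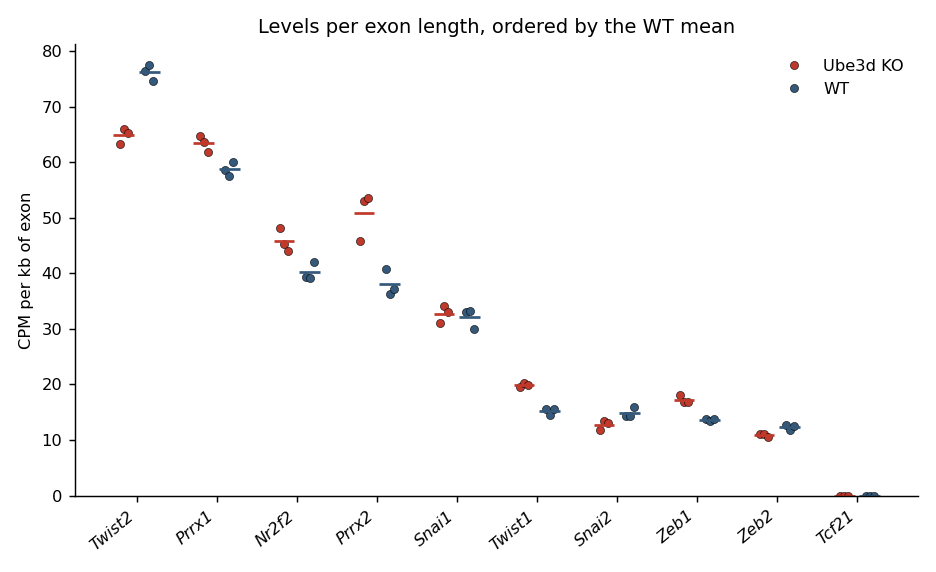
CPM per kb of exon of all 10 factors in each library (points) with the mean of 3 libraries (line), Ube3d-KO in red and WT in blue, ordered by the WT mean. Twist2 leads in WT at 76.2 CPM per kb and is level with Prrx1 in KO at 64.8 CPM per kb, and Tcf21 is at 0.

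The balance within each of 4 paralogue pairs was compared as the log2 ratio of levels per kb in each library. For Twist1 over Twist2 the ratio was -1.69, -1.71 and -1.71 in KO, against -2.29, -2.42 and -2.27 in WT, a difference of 0.62. For Zeb1 over Zeb2 it was 0.71, 0.61 and 0.67 in KO, against 0.12, 0.18 and 0.14 in WT, a difference of 0.51. These ratios shifted towards Twist1 and Zeb1 in every KO library. For Prrx1 over Prrx2 the ratio was 0.50, 0.26 and 0.20 in KO, against 0.52, 0.66 and 0.69 in WT, a difference of -0.30, and KO replicate 1 lay close to WT replicate 1. For Snai1 over Snai2 it was 1.38, 1.35 and 1.34 in KO, against 1.20, 1.22 and 0.91 in WT, a difference of 0.25 that was 0.15 without WT replicate 3. The genotypes did not overlap in any pair. All pair members but Snai1 were already separate in CPM, as were 64.3% of all tested genes. How often ratios of other gene pairs separate the genotypes was not counted. The exact two-sided permutation p was 0.1 in each pair and also after adjustment over the 4 pairs. That is the smallest p that 3 against 3 libraries can give. The summed level of a pair was 84.7 ± 1.6 CPM per kb in KO and 91.4 ± 1.0 in WT for Twist, 114 ± 3.2 in KO and 96.9 ± 2.8 in WT for Prrx, 45.5 ± 2.4 in KO and 47.0 ± 0.94 in WT for Snai, and 28.2 ± 0.85 in KO and 26.1 ± 0.66 in WT for Zeb.

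**Figure D4:**
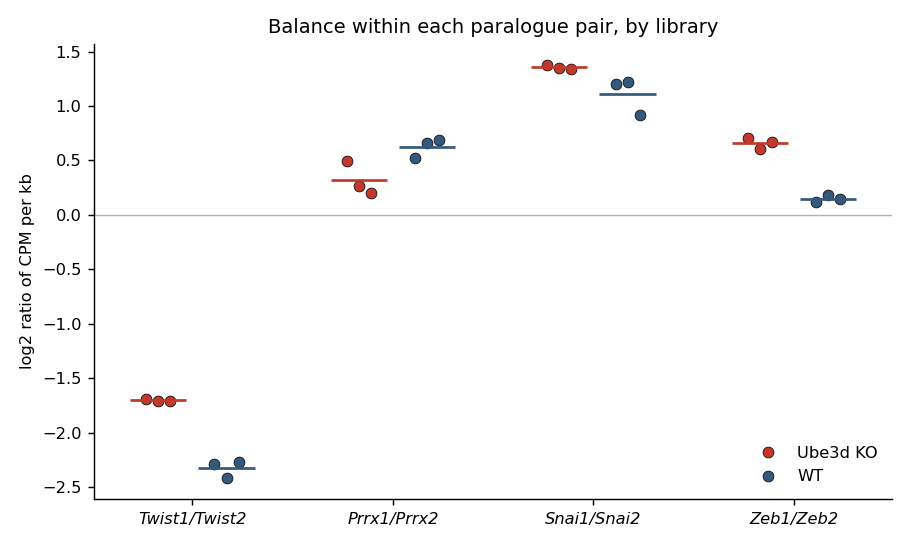
Log2 ratio of CPM per kb between the paralogues of each pair, by library (points) with the mean of 3 libraries (line), Ube3d-KO in red and WT in blue. The Twist1/Twist2 ratio averages -1.70 in KO and -2.33 in WT, and the Zeb1/Zeb2 ratio 0.66 in KO and 0.15 in WT.

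Genes of some chromosomes were shifted together in this comparison. Among the chromosomes of the tested factors, 2 and 12 had the medians furthest from that of all genes, and 4 factors lie on them. On chromosome 2, which holds Prrx2, Snai1 and Zeb2, 597 of the 1021 other tested genes were lower and 159 higher (median log2 fold change -0.24). Against that median Prrx2 stood 0.66 higher, Snai1 0.27 higher and Zeb2 0.06 higher. On chromosome 12, which holds Twist1, 243 of 446 were higher and 52 lower (median 0.19), and Twist1 stood 0.20 above it. Over all tested genes 31.2% were lower and 30.3% higher. The medians on the chromosomes of the other tested factors lay between -0.09 and 0.01. On chromosome 18, which holds Zeb1, 155 of 354 were lower and 64 higher. On chromosome 16, which holds Snai2, 149 of 400 were lower and 79 higher. On chromosome 1, 244 of 733 were lower and 202 higher, and on chromosome 7, 244 of 991 were lower and 270 higher. Left and right here mean towards lower and higher coordinates. Next to Snai1, Rnf114 on its left fell by 0.36 on the log2 scale (SE 0.06, edgeR adjusted p = 1.1e-06) and Ube2v1 on its right by 0.41 (SE 0.04, edgeR adjusted p = 1.7e-13). Next to Zeb2, Gtdc1 on its left fell by 0.51 (SE 0.10, edgeR adjusted p = 1.8e-05). Acvr2a, 3700 kb to the right of Zeb2, fell by 0.58 (SE 0.05, edgeR adjusted p = 7.6e-17). Beside Zeb1, Arhgap12 fell (log2 fold change -0.135, edgeR adjusted p = 0.0135) and Zfp438 was not called. Beside Snai2, Abcc1 rose (log2 fold change 0.21, edgeR adjusted p = 5.0e-07) and Ube2v2 was not called. Ptges, which encodes a prostaglandin E synthase and lies 8.22 kb to the right of Prrx2, rose with it (log2 fold change 0.33, SE 0.04, edgeR adjusted p = 7.1e-11), and Asb6 on the other side was not called (log2 fold change -0.10, edgeR adjusted p = 0.206). Hdac4, to the right of Twist2, fell by 0.23 (SE 0.08, edgeR adjusted p = 0.00732), and Asb1, to its left, rose (log2 fold change 0.25, SE 0.08, edgeR adjusted p = 0.00528). B130024G19Rik, which lies within Nr2f2 on the other strand and shares no exon base with it, rose (log2 fold change 0.52, SE 0.15, edgeR adjusted p = 0.00236). Whether the shift of a chromosome has a part in any factor's value was not tested.

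Of 7 genes for bHLH partners, the E-proteins and the Id inhibitors, 4 rose and 0 fell. Over all tested genes 30.3% rose and 31.2% fell, and 61.4% were called in either direction. The median log2 fold change of the 7 was 0.15, against 0.0041 for all tested genes. The 4 that rose were Id genes. Without WT replicate 3 only 3 were called, and Id3 was not among them. Id2 rose 1.55-fold (114 ± 0.76 CPM in KO and 74.0 ± 2.7 CPM in WT, edgeR adjusted p = 1.2e-24), Id4 1.35-fold, Id1 1.11-fold and Id3 1.11-fold. The E-protein genes Tcf3, Tcf4 and Tcf12 had log2 fold changes of 0.01, -0.05 and 0.03 and did not pass the test. The difference between Id and E-protein genes was not tested. Id2 lies on chromosome 12 and Id1 on chromosome 2.

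Close relatives of the factors were mostly absent. Of 16 further genes of the same families and partners, 5 could be tested and 5 had no count at all. Of those tested, 2 fell and 0 rose, where 31.2% of all tested genes fell and 30.3% rose. Nr2f1, the paralogue of Nr2f2, fell 1.47-fold (12.6 ± 0.62 CPM in KO and 18.5 ± 0.46 CPM in WT, edgeR adjusted p = 1.7e-09), while Nr2f2 itself rose. Zfpm2, a cofactor of NR2F2 and GATA proteins, fell 1.74-fold (8.24 ± 0.85 CPM in KO and 14.4 ± 0.80 CPM in WT, edgeR adjusted p = 2.5e-12). Shox2 and Nr2f6 were not called (log2 fold changes -0.07 and -0.06). The median of the 5 was -0.12.

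Of 18 tested genes among 28 other transcription factors of mesenchyme, 4 rose and 9 fell (median -0.24). Over all tested genes 30.3% rose and 31.2% fell. Runx1, a regulator of blood and skeletal progenitors, rose 1.67-fold (77.1 ± 1.2 CPM in KO and 46.0 ± 2.9 CPM in WT, edgeR adjusted p = 1.8e-24), and Ets1 rose 1.24-fold (144 ± 3.5 CPM in KO and 116 ± 3.2 CPM in WT, edgeR adjusted p = 4.2e-13). Tbx18, a T-box factor of mesenchymal and mural cells, fell 1.88-fold (19.5 ± 1.3 CPM in KO and 36.7 ± 1.0 CPM in WT, edgeR adjusted p = 2.6e-22), and Mkx, a homeodomain factor of tendon, fell 1.53-fold (11.2 ± 0.27 CPM in KO and 17.1 ± 1.0 CPM in WT, edgeR adjusted p = 3.5e-10). At lower levels than these, Hic1 fell 2.03-fold (2.25 CPM in KO and 4.56 CPM in WT, edgeR adjusted p = 8.1e-08). Lhx9 fell 1.96-fold (0.425 CPM in KO and 0.846 CPM in WT, edgeR adjusted p = 0.0147). Foxd1 fell 1.68-fold (3.04 CPM in KO and 5.16 CPM in WT, edgeR adjusted p = 8.5e-06). The fold changes of Runx1, Tbx18, Mkx, Hic1, Lhx9 and Foxd1 were larger than that of Prrx2, and the differences were not tested.

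Cofactors went both ways. Of 16 corepressors and cofactors, 4 rose and 5 fell (median 0.01), where 30.3% of all tested genes rose and 31.2% fell. Ctbp1, the corepressor that ZEB proteins recruit, rose 1.25-fold (edgeR adjusted p = 2.2e-14), Limd1, a LIM protein of the Ajuba family that binds SNAI proteins, 1.30-fold (edgeR adjusted p = 3.0e-12) and Rcor1, the scaffold of the CoREST complex, 1.25-fold (edgeR adjusted p = 4.8e-08), while the deacetylase gene Hdac1 fell 1.19-fold (edgeR adjusted p = 7.3e-08). Elsewhere in the Ajuba family, Ajuba itself fell 1.23-fold (edgeR adjusted p = 2.8e-07) and Wtip rose 1.2-fold (edgeR adjusted p = 0.00153). Of 12 tested genes for enzymes that set the turnover of SNAI, TWIST and ZEB proteins, 4 rose and 4 fell (median 0.01). The shares over all tested genes are again 30.3% and 31.2%. Without KO replicate 3 only 2 of the tested enzyme genes fell. Psmd14, a deubiquitinase of the proteasome, fell 1.45-fold (117 ± 0.89 CPM in KO and 170 ± 6.5 CPM in WT, edgeR adjusted p = 3.9e-24) and Fbxo11, a ubiquitin ligase subunit that targets SNAI proteins, 1.19-fold (edgeR adjusted p = 4.9e-10). Siah1b, a RING ubiquitin ligase, fell 1.18-fold (edgeR adjusted p = 0.00582). Btrc, the ligase subunit that recognises phosphorylated SNAI1, rose 1.22-fold (edgeR adjusted p = 4.9e-06). Psmd14 lies on chromosome 2. Protein levels were not measured.

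Among genes that mark the mesenchymal state, some had larger fold changes than any of the factors. Of 18 such genes, 4 rose and 9 fell (median -0.21), where 30.3% of all tested genes rose and 31.2% fell. Thy1, Col1a1, Col1a2 and Vim are also among the fibroblast markers above. The median absolute log2 fold change was 0.385 against 0.217 for the factors, and the difference between these medians was not tested. Lox fell 3.72-fold (142 ± 3.6 CPM in KO and 527 ± 21 CPM in WT, edgeR adjusted p = 7.0e-57), Col1a1 2.27-fold (706 ± 13 CPM in KO and 1602 ± 68 CPM in WT, edgeR adjusted p = 1.2e-45) and Cdh11, a mesenchymal cadherin, 1.68-fold (184 ± 1.5 CPM in KO and 309 ± 7.1 CPM in WT, edgeR adjusted p = 8.6e-34). Postn, encoding periostin, was at 0.604 ± 0.093 CPM in KO and 16.4 ± 0.52 CPM in WT (edgeR adjusted p = 1.7e-40). The 4 that rose were Tnc, encoding the matrix protein tenascin C, 1.45-fold (390.6 ± 4.1 CPM in KO and 268.9 ± 6.3 CPM in WT, edgeR adjusted p = 4.6e-26), S100a4 1.24-fold, Mmp14, a membrane-bound matrix protease, 1.14-fold and Itga5, an integrin subunit, 1.12-fold. Vim, Cdh2 and Itgb1, also standard markers of this state, had log2 fold changes of -0.03, -0.04 and -0.001 and were not called. Dnm3os, a noncoding RNA gene known as a target of TWIST1, was at 110, 110 and 102 CPM in KO, against 86.9, 121 and 97.3 CPM in WT, with overlapping groups (edgeR adjusted p = 0.712).

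Epithelial genes, the classical targets of SNAI and ZEB repression, were at low levels or had no count in both genotypes. Of 21 listed, 6 had no count in any library, Epcam, Cldn3, Krt18, Esrp1, Ovol2 and Crb3, and 6 could be tested. The whole list summed to 10.4 to 12.3 CPM in KO libraries and 7.15 to 9.08 CPM in WT libraries. Cdh1 (E-cadherin) was at 0, 0.147 and 0.0356 CPM in KO, against 0.0857, 0.0673 and 0.187 CPM in WT. Other genes with too few counts to test went both ways. Krt19 was at 0.0393 to 0.0733 CPM in KO libraries and 0.171 to 0.202 CPM in WT libraries. Dsp averaged 0.0237 CPM in KO and 0.121 CPM in WT, and Ocln 0 CPM in KO and 0.0486 CPM in WT. Ovol1 averaged 0.170 CPM in KO and 0.041 CPM in WT. Of the 6 tested, 3 rose and 0 fell, where 30.3% of all tested genes rose and 31.2% fell. Only 2 of the 6 were called without KO replicate 1, without KO replicate 2 and without WT replicate 1. A filter at 1 CPM in 3 libraries kept only Cgn and Lsr of the 6 in the test, and both were called. Cgn (cingulin) was at 4.28 ± 0.40 CPM in KO and 3.13 ± 0.31 CPM in WT (edgeR adjusted p = 0.00751), Lsr at 3.46 ± 0.70 CPM in KO and 2.42 ± 0.50 CPM in WT (edgeR adjusted p = 0.0102), and Pkp3 (plakophilin 3) at 1.14 ± 0.20 CPM in KO and 0.556 ± 0.11 CPM in WT (edgeR adjusted p = 0.00317). The genotypes overlapped for Lsr, with KO replicate 3 at 2.705 CPM and WT replicate 3 at 2.989 CPM. Esrp2, an epithelial splicing regulator, was at 0.816 ± 0.11 CPM in KO and 0.564 ± 0.26 CPM in WT and was not called (edgeR adjusted p = 0.187). The E-box shown in capitals above was found in a promoter window of 11 of the 14 listed epithelial genes that have an entry, against 22.6% of all 27025 genes in the promoter table. The Lsr sequence holds it 4 times and Epcam, with 0 counts, holds it at 2 places. Of the other genes that rose, Cgn has it at 0 places in its window and Pkp3 has no entry. The epithelial list was drawn up from textbook targets of these repressors, so the share describes that choice as well as the promoters.

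**Figure D5:**
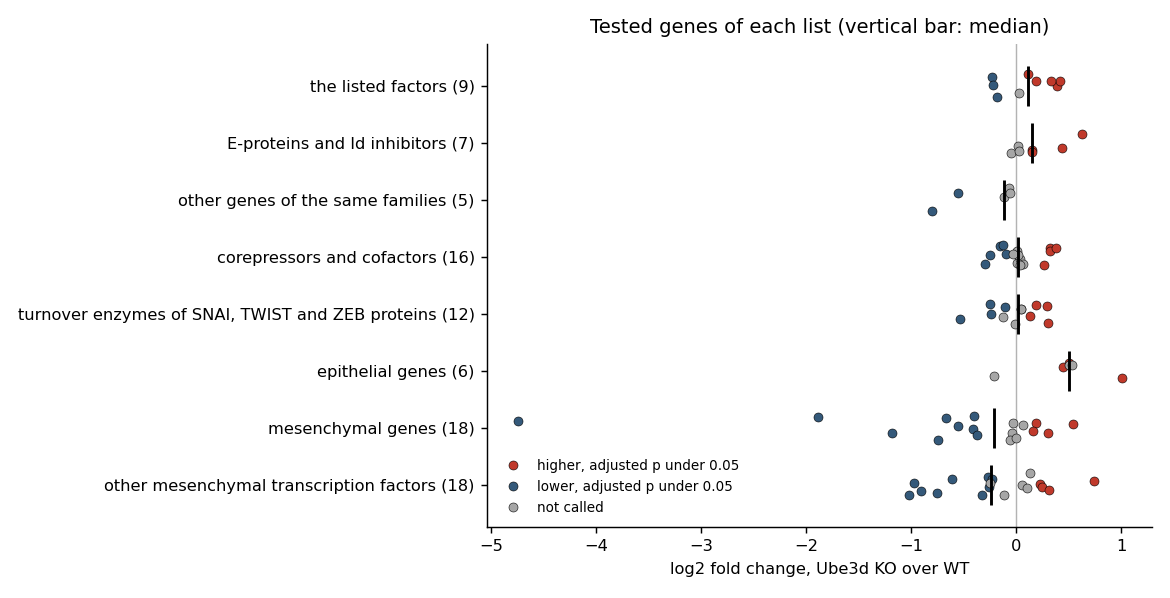
Log2 fold change, Ube3d-KO over WT, of the tested genes of each list (points, number in brackets), coloured by the call, with the list median as a vertical bar. The factors lie between -0.23 and 0.42, while the mesenchymal genes reach -4.75 (Postn).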

How the data were processed

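Per the labels' protocols, ribosomal RNA was depleted and stranded libraries were made. The submitters' processing notes name STAR 2.6.1d, featureCounts 1.6.3 and the builds mm10 and GRCm38. The values deposited by the authors are raw counts of reads in exons of each gene. Whether strand was used and how multiply aligned reads were treated was not given in the sources used here. A second deposited table of downstream regions carries no gene names and was not used.

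Groups and replicate numbers came from the sample titles. Counts were tested with edgeR 4.0.16 (R 4.3.3): quasi-likelihood F test with robust fitting, TMM, filterByExpr (minimum count 10, total 15), two-sided, Benjamini-Hochberg over 12947 genes, calls under 0.05. SEs were computed as |log2 fold change| / √F. The fit was also run on simulated counts with far fewer changed genes than were called here and the same dispersion for every gene. That run therefore does not give the error rate for these data. Ratios used a prior of 0.5 counts and a two-sided exact permutation test (SciPy 1.17.1). Plots used matplotlib 3.10.9. Promoter sequences are from RefSeq (GRCm38.p6).

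Library pairs of a genotype differed by more than sampling noise (chi-square per gene 2.02 to 6.21). Rn45s, the ribosomal RNA precursor gene, took 9.99% ± 0.28 of KO and 7.99% ± 0.83 of WT counts. Alternatives were other scalings, filters, DESeq2 1.42.0, limma-voom (limma 3.58.1), the replicate block, leaving out Rn45s and leaving out each library. The factors and gene lists were chosen with earlier results of these data known. Named genes were the 10 factors, Ube3d, up to 4 genes with the smallest adjusted p per list, and neighbours of the factors; other names were chosen after their values were seen.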

Additional observations from a re-analysis of the deposited data

How the results depend on the processing

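Under all 14 alternatives fitted across genes (other scalings, filters and tests, the replicate block, no Rn45s, and each library left out), the 8 called factors kept their direction and their call, with 5 higher and 3 lower each time. Snai1 was called under none of them, and its log2 fold change lay between -0.022 and 0.064 with a library left out, below 0 without KO replicate 2 (-0.0067) and without WT replicate 3. The replicate block gave the same 8 calls among the factors and 7816 calls among all genes, against 7955. Same-numbered libraries did not deviate together (correlations -0.029, -0.033 and -0.032). No strong shared effect of the number was seen, which cannot tell whether libraries were handled in pairs. The paralogue ratios are the same with and without a block by construction. Calls over all genes lay between 7027 (DESeq2) and 8196 (no count filter). The chromosome 2 median was -0.227 with upper quartile factors, -0.203 with no count filter, -0.241 with a filter at 1 CPM, -0.240 with the replicate block and -0.235 without Rn45s, and between -0.244 and -0.234 with a library left out. The chromosome 12 median was 0.203 with upper quartile factors and between 0.170 and 0.198 with a library left out. The causes were not tested. With 3 libraries per genotype the permutation test of a ratio cannot reach 0.05, and genes under 1 CPM rest on few counts.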

Other observations

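Eya4, the nearest tested gene to the right of Tcf21 on chromosome 10, was at 0.0786, 0.0367 and 0 CPM in KO libraries, against 0.814, 1.31 and 1.08 CPM in WT libraries (edgeR adjusted p = 3.2e-11). Tbpl1, on the left of Tcf21, fell by 0.34 on the log2 scale (SE 0.06, edgeR adjusted p = 6.0e-07). Hdac9, to the right of Twist1 on the other strand, was at 0.567 ± 0.095 CPM in KO and 0.140 ± 0.092 CPM in WT (SD, n = 3 each, edgeR adjusted p = 3.6e-04), while Twistnb on the left of Twist1 had a log2 fold change of 0.03 (edgeR adjusted p = 0.606).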
